A study of Mus musculus with 8 samples.

Results

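Pdk4, Pdk2, Txnip, Arrdc2, Angptl4 and Ucp3 are 6 genes of the switch between glucose and fatty acid as heart fuel, and they were followed here through the cell types of the adult mouse heart. They are 6 of the 32285 genes in the deposited single-nucleus tables. They were chosen with measured values in view, chiefly their levels in the cardiomyocyte nuclei of nTg female 1 against the libraries labelled Tg, so that contrast is given as a description and not as a test. The study labels 8 droplet libraries (10x Genomics) of nuclear RNA from adult hearts, by sex and by genotype. The wild-type hearts are nontransgenic (nTg), and the Tg-ccna2 hearts constitutively express Ccna2, the gene of the cell-cycle regulator cyclin A2. The strain, the age, the promoter that drives the transgene and the number of hearts behind each library are not given in the sources used here, no treatment is labelled, and p-values measure only the spread between libraries.

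The libraries compared were 5: nTg female 1, the Tg female pair (1 and 2) and the Tg male pair (1 and 2). The other 3 matrices held the same values as those of Tg female 2 and of both Tg males, with column counts that differed from their own barcode lists, and were not analysed here. Total UMIs (unique transcript molecules) per library ran from 25045167 to 38593706, and 5773 to 8817 nuclei per library were kept, 34224 in all. Any pair of libraries shared at most 0.341% of the barcodes of the smaller one. In cardiomyocyte nuclei, Ccna2 stood at 448 counts per 1000000 UMIs (CPM) in nTg female 1 and at 0.533 CPM in Tg female 1. It stood at 848 CPM in Tg female 2 and at 237 and 144 CPM in the Tg male pair. So nTg female 1 and Tg female 1 go against their genotype labels, they are called by their labels throughout, and no direction below is a statement about the transgene.

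Pyruvate dehydrogenase lets pyruvate from glucose into the mitochondrial citric acid cycle. The pyruvate dehydrogenase kinases phosphorylate and inhibit it, which spares glucose while fatty acids are burned, and Pdk4 is the kinase whose transcript is induced by fasting, by fatty acids through PPAR receptors and by Foxo factors and glucocorticoids. Txnip and Arrdc2 belong to the alpha-arrestin family. Txnip binds thioredoxin and restrains glucose uptake, and its transcript is a classical target of the glucose-sensing Mondo/Mlx factors. Angptl4 is a secreted inhibitor of lipoprotein lipase, Ucp3 is a mitochondrial inner membrane carrier of muscle, and both are PPAR targets.

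Promoter sequence from RefSeq (GRCm38.p6) was on hand for 5 of the 6 genes, with no entry for Angptl4. The sequences of Pdk4, Txnip and Ucp3, which were lower in the cardiomyocytes of nTg female 1, and of Arrdc2, which had the largest fitted difference between the sexes there, are shown so that their known inputs can be looked for. Each covers bases 250 to 51 before the transcription start, 5′ to 3′ on the gene's own strand. They lie at chr6:5496329-5496528 (minus strand, Pdk4), chr3:96557707-96557906 (plus, Txnip), chr7:100472741-100472940 (plus, Ucp3) and chr8:70839771-70839970 (minus, Arrdc2). Capitals mark the letters of the motifs found.
Pdk4: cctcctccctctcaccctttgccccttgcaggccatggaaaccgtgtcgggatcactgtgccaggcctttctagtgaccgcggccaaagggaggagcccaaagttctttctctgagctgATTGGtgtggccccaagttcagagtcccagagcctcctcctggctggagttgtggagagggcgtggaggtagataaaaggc
Txnip: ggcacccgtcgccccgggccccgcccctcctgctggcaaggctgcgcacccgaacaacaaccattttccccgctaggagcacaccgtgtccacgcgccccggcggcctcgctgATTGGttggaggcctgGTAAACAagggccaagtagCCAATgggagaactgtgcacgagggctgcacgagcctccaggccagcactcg
Ucp3: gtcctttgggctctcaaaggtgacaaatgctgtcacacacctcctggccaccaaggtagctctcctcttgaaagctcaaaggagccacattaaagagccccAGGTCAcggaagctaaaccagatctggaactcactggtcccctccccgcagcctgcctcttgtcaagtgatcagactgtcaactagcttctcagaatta
Arrdc2: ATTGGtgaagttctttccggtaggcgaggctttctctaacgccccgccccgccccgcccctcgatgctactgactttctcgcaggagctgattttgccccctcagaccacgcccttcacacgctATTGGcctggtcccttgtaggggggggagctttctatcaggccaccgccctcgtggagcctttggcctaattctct

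Both strands were searched for GTAAACA (the forkhead core that Foxo factors bind), AGGTCA (a nuclear receptor hexamer), TGTTCT (a glucocorticoid receptor hexamer), CACGTG (the E-box) and CCAAT, none of which contains another. Txnip held GTAAACA, at 121 to 115 bases before its start, as did 2.58% of 32851 RefSeq promoters in the same window. Ucp3 held AGGTCA at 149 to 144 bases before its start, against 11.4% of promoters. Pdk4 held CCAAT on the opposite strand (printed as ATTGG), at 131 to 127 bases before its start, and 28.4% of promoters hold that box. CACGTG, present in 4.34% of promoters, was found in Pdk2, at 126 to 121 bases before its start. TGTTCT, present in 13.2% of promoters, was in none of the windows of the 5 genes. These are matches of exact letters, not shown sites. Variant forms of a motif, such as E-boxes with other letters, were not searched, so no window is shown to lack them.

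The genes lie on 6 chromosomes of GRCm38 in the GENCODE annotation: Pdk4 at chr6:5483351-5496309 (minus), Pdk2 at chr11:95026258-95041354 (minus), Txnip at chr3:96557957-96561883 (plus), Arrdc2 at chr8:70835129-70839720 (minus), Angptl4 at chr17:33773750-33781830 (minus) and Ucp3 at chr7:100472990-100486432 (plus). All are protein-coding. For 3 of them, an annotated antisense neighbour overlaps and is counted as a gene of its own. Gm15441 covers the whole of Txnip, Gm10603 overlaps Ucp3 by 1857 bases, and Gm11513 overlaps Pdk2 by 5525 bases. Whether the counting used strand is not given in the sources used here, so reads of these pairs may not be separable.

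Nuclei fell into 22 clusters, of which all but 3 were named by marker genes, as 11 cell types, and 8 types had at least 50 nuclei in each of the 5 libraries. Cardiomyocyte nuclei numbered 1123 in nTg female 1, 1938 and 909 in the Tg female libraries and 1267 and 1173 in the Tg male libraries. Their 10 cardiomyocyte markers (among them Ttn, Myh6 and Ryr2) summed to 44960 to 56018 CPM per library. In the same nuclei the 9 fibroblast markers summed to 67.3 to 262 CPM, highest in Tg female 2, and the 9 endothelial markers to 64.1 to 79.9 CPM. Levels below are UMIs summed over the nuclei of a type, per 1000000 UMIs of that type and library, with no correction for length, so levels are compared within a gene only.

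Pdk4, the inducible kinase, differed widely between the cardiomyocytes of the 5 libraries. Its level was 74.7 CPM in nTg female 1, 221 and 411 CPM in Tg female 1 and 2, and 897 and 769 CPM in Tg male 1 and 2. The nTg library was below all 4 Tg libraries, and both Tg female libraries were below both Tg male libraries. The 713 UMIs behind the nTg value gave a 95% Poisson interval of 69.3 to 80.4 CPM, far from the 213 to 230 CPM of Tg female 1; such intervals cover counting error only. The Tg mean was 575 ± 312 CPM (SD, n = 4), 7.69-fold the nTg level, a log2 difference (nTg minus Tg) of -2.94.

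Pdk2, the constitutive heart kinase of the same enzyme, did not share this pattern. It stood at 61.1 CPM in nTg female 1, 56.8 and 45.1 CPM in the Tg female libraries and 58.8 and 54.3 CPM in the Tg male libraries. The nTg library was the highest of the 5, by 0.18 on the log2 scale over the Tg mean of 53.7 ± 6.08 CPM (SD, n = 4). Of all 13008 genes considered in cardiomyocytes (a mean of at least 20 UMIs per library), 13.5% were above all 4 Tg libraries in this way. Pdk1, a further kinase of the complex, was at 48.8 CPM against a Tg mean of 47.3 ± 4.24 CPM (SD, n = 4), and Pdk3 was at most 0.374 CPM in any library.

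Txnip separated nTg female 1 from the rest and did not separate the sexes. Its level was 94.8 CPM in nTg female 1, 403 and 494 CPM in the Tg female libraries, and 450 and 489 CPM in the Tg male libraries. The 4 Tg libraries lay close together, at a mean of 459 ± 42.4 CPM (SD, n = 4), which is 4.84-fold the nTg level (log2 difference -2.27). The antisense gene Gm15441 was low in the same library, at 1.78 CPM against 17.9, 25.03, 19.2 and 25.4 CPM. The part that shared reads play in either value was not tested.

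Arrdc2, the other alpha-arrestin, ordered the libraries differently. It stood at 64.2 CPM in nTg female 1, 6.16 and 17.0 CPM in Tg female 1 and 2, and 75.3 and 71.8 CPM in Tg male 1 and 2. The nTg female library thus lay inside the Tg range and near the male libraries, while both Tg female libraries were several-fold lower. Against the mean of all 4 Tg libraries (42.6 ± 36.1 CPM, SD) its log2 difference was 0.59, and against the Tg female libraries alone it was 2.47. Of the family members outside the 6, Arrdc3 was at 72.6 CPM in nTg female 1 and 62.8 ± 15.5 CPM (SD, n = 4) in the Tg libraries, and Arrdc4 was at 1.99 against 3.08 ± 0.987 CPM.

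Ucp3 and Angptl4 were lower in nTg female 1 by smaller margins. Ucp3 was at 65.0 CPM there, 115 and 119 CPM in the Tg female libraries and 146 and 141 CPM in the Tg male libraries. The Tg mean of 130 ± 15.7 CPM (SD, n = 4) was 2.01-fold the nTg level. Angptl4 was at 9.01 CPM in nTg female 1, 21.7 and 10.8 CPM in the Tg female libraries and 30.7 and 29.8 CPM in the Tg male libraries. Tg female 2 was close to the nTg library (65 and 86 UMIs), and the Tg mean of 23.3 ± 9.22 CPM (SD, n = 4) was 2.58-fold the nTg level.

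**Figure D1:**
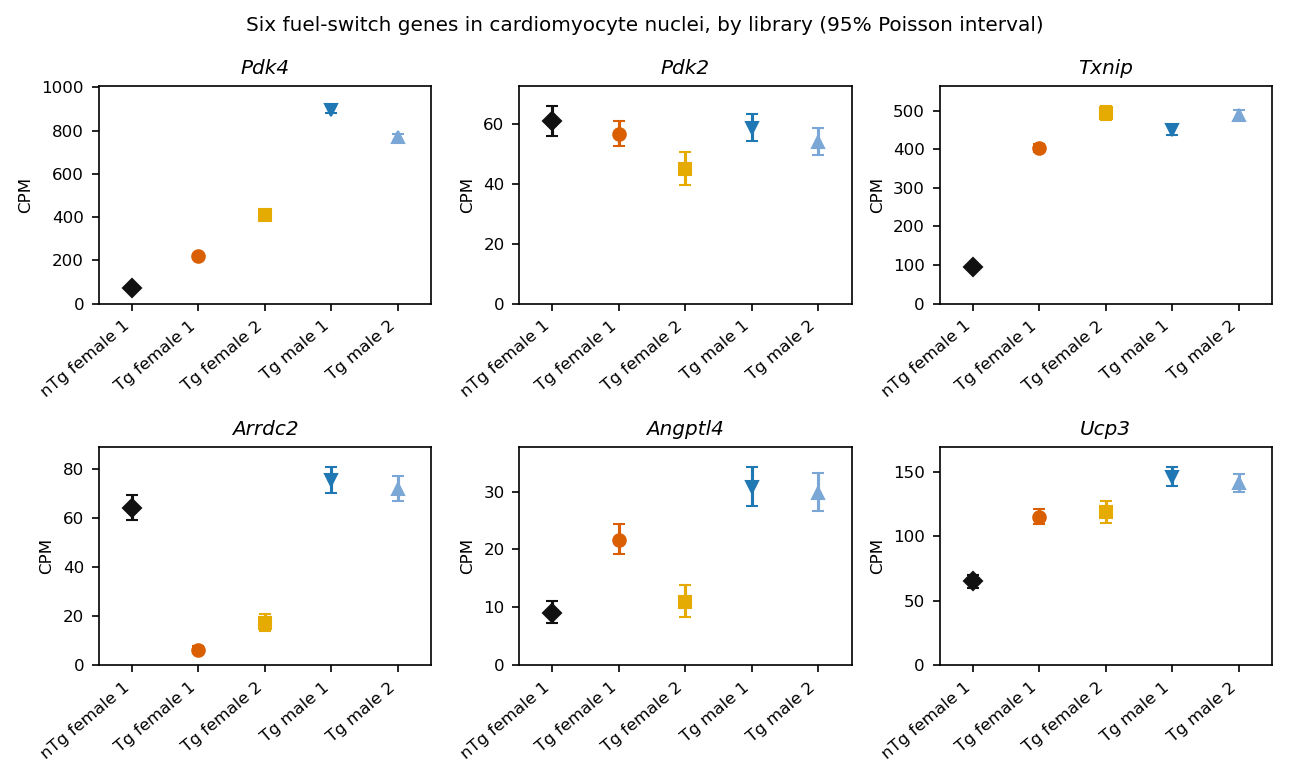
Levels of the 6 genes in cardiomyocyte nuclei, in CPM (vertical axis from 0), with 1 point per library and bars for the 95% Poisson interval of the count. Pdk4 runs from 74.7 to 897 CPM with both Tg male libraries highest, Txnip is low in nTg female 1 alone at 94.8 CPM, and Arrdc2 is low in the Tg female libraries, at 6.16 and 17.0 CPM.

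The genes Pdk4, Txnip, Ucp3 and Angptl4, 4 of the 6, were at least 2-fold lower in nTg female 1 and below every Tg library, and 1.42% of the 13008 genes considered met this rule. This share is given as background only, since the genes were chosen on this contrast. Below all 4 Tg libraries, with no fold required, were 19.5% of genes, and 0.308% were at least 2-fold higher and above all 4. Just inside the 2-fold threshold lay Ucp3 with a log2 difference of -1.005, and Angptl4 followed with -1.37. Ucp3 was no longer 2-fold lower with the scaling of edgeR's TMM (-0.96), against the Tg female libraries alone (-0.85), without Tg male 1 (-0.95) or without Tg male 2 (-0.96). Angptl4 was not 2-fold lower against the Tg female libraries alone (-0.85).

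Without Tg female 1, whose Ccna2 level goes against its label, the log2 differences were -3.21 for Pdk4, -2.33 for Txnip, -1.40 for Angptl4 and -1.06 for Ucp3. Cardiomyocyte nuclei formed 3 clusters, and the libraries filled them unequally. Cluster 3, with Ankrd1 and Nppb among its leading genes, held 383 nuclei of nTg female 1, 1229 and 719 of the Tg female libraries and 415 and 455 of the Tg male libraries. Cluster 5, with Rgs13 and Rp1 among its leading genes, held 686, then 538 and 150, then 797 and 682, in the same order.

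Within each cluster, Pdk4 and Txnip were again below all 4 Tg libraries in nTg female 1. The log2 difference of Pdk4 was -3.03 in cluster 3, -2.996 in cluster 5 and -2.26 in cluster 16, a small group led by Nppa and Kcnj11. That of Txnip was -2.33, -2.26 and -2.36. Ucp3 gave -1.09 and -1.19 in clusters 3 and 5, and lay within the Tg range in cluster 16 (-0.35). Pdk4 of the Tg female libraries was below that of the Tg male libraries in each cluster, at mean levels of 302 against 781 CPM, 395 against 865 CPM and 262 against 623 CPM. Arrdc2 did the same, at 11.2 against 76.2 CPM in cluster 3 and 15.02 against 72.6 CPM in cluster 5. Ucp3 did so in cluster 3 only, and the sexes overlapped in clusters 5 and 16. Angptl4 did so in clusters 5 and 16 (under the minimum of 20 UMIs in cluster 16), and the sexes overlapped in cluster 3. These per-cluster values were added after the data had been seen.

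In cardiomyocytes the share of nuclei with Pdk4 ordered the libraries as its summed level did, while for Txnip and Arrdc2 libraries close in level changed places. With each cardiomyocyte nucleus thinned to 1000 UMIs, Pdk4 was found in 7.25% of nuclei of nTg female 1 (95% exact binomial interval 5.79 to 8.92), in 17.1% and 26.9% in the Tg female libraries and in 53.1% and 48.2% in the Tg male libraries. Unthinned shares were 32.1%, 52.1%, 60.7%, 90.3% and 89.5%, at median depths of 7761, 6197, 5905, 7823 and 8023 UMIs. In endothelial nuclei, where Pdk4 was low in all libraries, the thinned share was 1.05% to 1.69%, and the unthinned share 2.10% to 4.23% at median depths of 1598 to 2208 UMIs. Thinning left out 2 to 30 cardiomyocyte nuclei and 15 to 113 endothelial nuclei per library.

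Txnip was found in 8.14% of thinned cardiomyocyte nuclei of nTg female 1, and in 32.9%, 36.0%, 35.4% and 39.4% of those of the Tg libraries. Unthinned, the shares were 42.3%, 83.4%, 85.6%, 90.5% and 94.5%. The 5% of nuclei with most Txnip held 34.6% of its UMIs in nTg female 1, and 15.97% to 17.4% in the Tg libraries. That part was taken without thinning and rises as counts fall (905 UMIs in nTg female 1, at least 2961 in the Tg libraries). It is thus not read as Txnip confined to few nuclei. In endothelial nuclei of nTg female 1, Txnip was found in 26.5% of thinned nuclei, within the 21.9% to 28.0% of the Tg libraries.

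For Ucp3 the thinned share was 5.90% in nTg female 1 and 10.8% to 13.8% in the Tg libraries, and in endothelial nuclei it was at most 0.26%. Arrdc2 was found in 6.89% of thinned cardiomyocyte nuclei of nTg female 1, in 0.629% and 1.78% in the Tg female libraries and in 6.76% and 6.83% in the Tg male libraries. The Tg female 1 share lay within the 0.557% to 0.954% of endothelial nuclei, where Arrdc2 was low in all libraries. Angptl4 reached at most 3.895% of thinned nuclei, and Pdk2 3.34% to 6.40%.

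**Figure D2:**
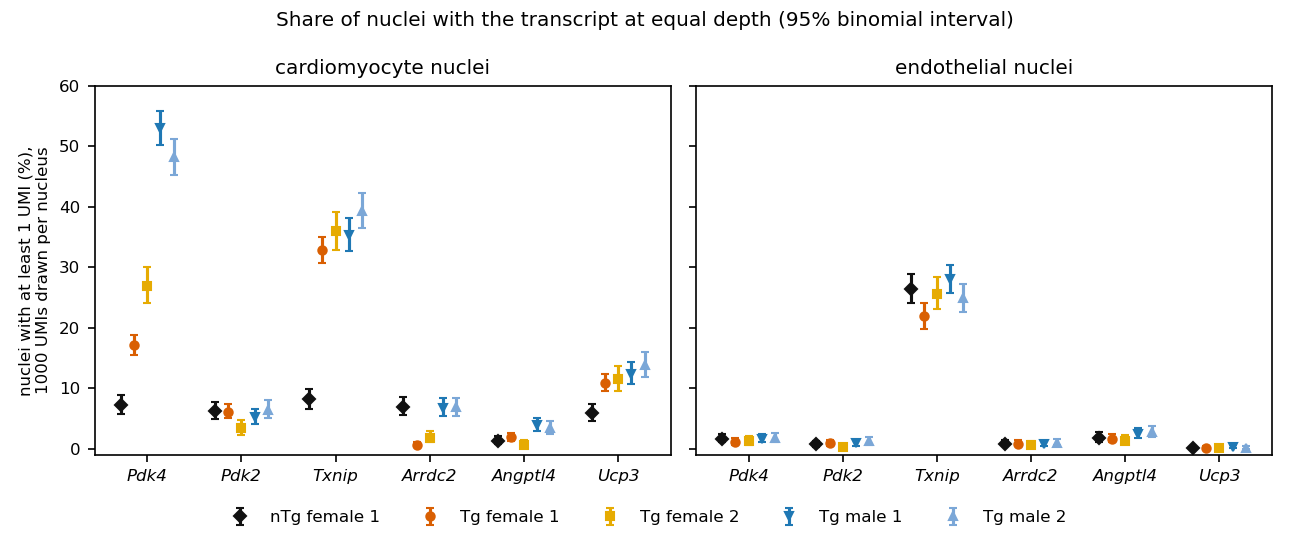
Percent of nuclei with at least 1 UMI of each gene after 1000 UMIs were drawn per nucleus, in cardiomyocyte (left) and endothelial nuclei (right), 1 point per library with 95% exact binomial intervals. Pdk4 in cardiomyocytes climbs from 7.25% to 53.1% between libraries, while Txnip in endothelial nuclei stays between 21.9% and 28.0%.

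Across the 8 cell types with at least 50 nuclei in each library, Pdk4, Pdk2 and Ucp3 were highest in cardiomyocytes. Txnip was found in every type, and Angptl4 was spread over endothelium, cardiomyocytes and fibroblasts. The mean level of Pdk4 over the 5 libraries was 475 ± 351 CPM (SD) in cardiomyocytes and 29.4 ± 10.9 CPM in fibroblasts, the next of the 8 types, and cardiomyocytes were higher in 5 of 5 libraries. Schwann and mesothelial nuclei, too few for the comparisons, had means of 100.8 and 43.1 CPM on 56 and 14 UMIs. Below fibroblasts came smooth muscle, endothelial, endocardial, pericyte, macrophage and lymphatic endothelial nuclei, from 18.9 down to 8.71 CPM, with no step between neighbours larger than the larger of their SDs. Pdk2 was at 55.2 ± 6.21 CPM (SD, n = 5) in cardiomyocytes and at 8.32 to 11.9 CPM in the other 7 types. Among these 7 no step between neighbours in level was larger than the larger of their SDs.

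Ucp3 had a mean of 117 ± 32.3 CPM (SD, n = 5) in cardiomyocytes and 3.89 ± 1.68 CPM in macrophages, with the other 6 of the 8 types at or under 1.92 CPM. Arrdc2 was at 46.9 ± 32.7 CPM (SD, n = 5) in cardiomyocytes and 16.6 ± 4.35 CPM in macrophages, a step within the spread. In Tg female 1 the macrophage level was above the cardiomyocyte level, at 22.3 against 6.16 CPM. Endothelial (9.05), endocardial (7.49), fibroblast (7.17) and pericyte nuclei (6.70 CPM) were above it there too. Lymphatic endothelial (1.88) and smooth muscle nuclei (5.25 CPM) were below it. From macrophages to fibroblasts (11.7 ± 3.18 CPM) the step exceeded the larger SD.

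The levels of Txnip formed 3 tiers. Cardiomyocytes (386 ± 167 CPM, SD, n = 5), lymphatic endothelial (376 ± 78.9), macrophage (319 ± 45.5) and endothelial nuclei (306 ± 35.8) did not differ beyond their spread. Lymphatic endothelial nuclei were nevertheless above macrophages in 5 of 5 libraries. The place of cardiomyocytes in this tier rests on nTg female 1. In the 4 Tg libraries they were at 459 ± 42.4 CPM, above macrophages (320 ± 52.5) and endothelial nuclei (300.4 ± 38.2) by more than the SDs, and in nTg female 1 they were at 94.8 CPM, below both (316 and 331 CPM). In mean level a step larger than the SDs separated these 4 types from endocardial (196), pericyte (173) and fibroblast nuclei (156 CPM). A further step separated fibroblasts from smooth muscle (100.3 CPM). In nTg female 1, however, cardiomyocytes were also below endocardial (220), pericyte (139) and fibroblast nuclei (113 CPM). They were near smooth muscle (92.2 CPM) there. Angptl4 was at 22.2 ± 9.67 CPM in endothelial, 20.4 ± 10.2 CPM in cardiomyocyte and 16.7 ± 7.85 CPM in fibroblast nuclei (SD, n = 5), which overlapped. Its next step beyond the spread came between pericytes (12.4 CPM) and endocardial nuclei (5.80 CPM).

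**Figure D3:**
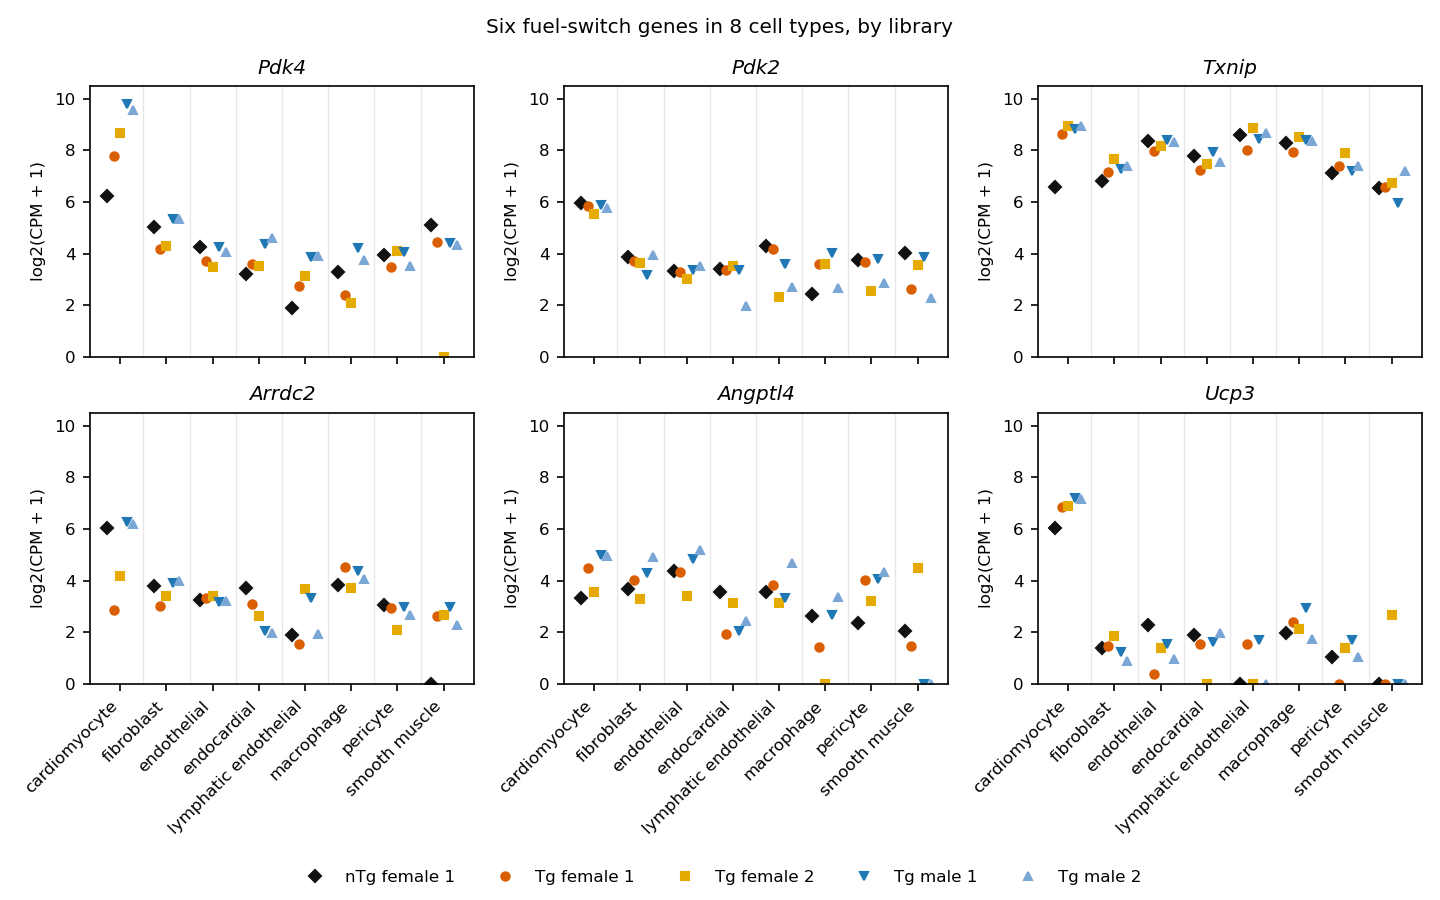
Levels of the 6 genes in 8 cell types as log2(CPM + 1), 1 symbol per library. Pdk4 and Ucp3 stand highest in cardiomyocytes in all 5 libraries, and Txnip of nTg female 1 stands apart from the Tg libraries in the cardiomyocyte column, at 94.8 CPM.

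Free RNA of cardiomyocytes reaches other droplets, so each level outside cardiomyocytes was set beside the level that carry-over would bring. The 10 cardiomyocyte markers in the 7 other types compared amounted to between 2.79% (fibroblasts and lymphatic endothelial nuclei) and 7.27% (smooth muscle) of their own level in cardiomyocytes. The same share of the cardiomyocyte level of each gene is the carried-over estimate. It may be too high, since Pdk4 itself was found below it in several types.

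Txnip was above its estimate in all 5 libraries in each of the 7 other types, by 2.39-fold to 98.3-fold. Ucp3 was above its estimate in no library in 5 of the 7 types, in 1 library in endocardial nuclei and in 2 in macrophages, so its levels there are not read as expression. Pdk2 was above its estimate in all 5 libraries in each of the 7 types, by at least 1.37-fold.

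Pdk4 was above its estimate in fibroblasts in 4 of 5 libraries, in endocardial nuclei in 3, in endothelial, pericyte and smooth muscle nuclei in 2, in macrophages in 1 and in lymphatic endothelial nuclei in none. In endothelial nuclei it was measured at 18.3, 12.1, 10.3, 17.9 and 15.9 CPM in the library order used above. The estimates there were 4.53, 10.6, 23.9, 40.1 and 29.7 CPM, so that the Pdk4 of this type was above carry-over in nTg female 1 and Tg female 1 only. In Schwann nuclei, of which a library held too few for the comparisons, Pdk4 was at 21.4, 40.3, 141, 154 and 147 CPM on 2 to 26 UMIs. Cardiomyocyte markers in these Schwann nuclei summed to 9739, 3641, 15000, 9114 and 4546 CPM, against 1479 to 2210 CPM in fibroblasts. No carried-over estimate was made for Schwann nuclei, and the part of carry-over in their levels was not tested. Txnip was at 107 CPM in the Schwann nuclei of nTg female 1 (10 UMIs) and at 262, 423, 404 and 401 CPM in those of the Tg libraries, a Tg mean of 372 ± 74.1 CPM (SD, n = 4).

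**Figure D4:**
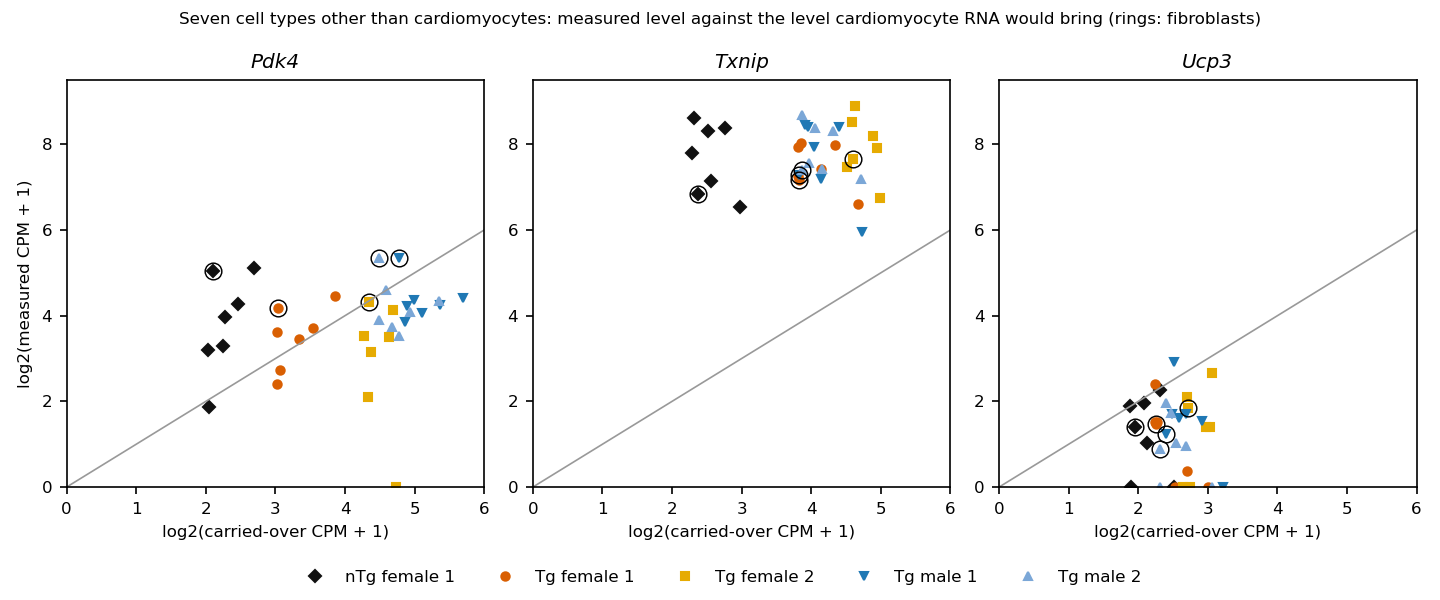
Measured level against the level that cardiomyocyte RNA would bring, both as log2(CPM + 1), in the 7 other cell types for Pdk4, Txnip and Ucp3, 1 symbol per library and type with fibroblasts ringed and the line of equality in grey. Txnip lies above the line in all 5 libraries and 7 types, Ucp3 mostly below it, and Pdk4 on both sides.

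Among the 7 other types compared, Txnip passed the minimum of 20 UMIs in all and Pdk4 in fibroblasts and endothelial nuclei, and neither was 2-fold lower in nTg female 1 there. Txnip was at 113 CPM in its fibroblasts against 143, 202, 156 and 167 CPM in the Tg libraries, a log2 difference of -0.56. Below all 4 Tg libraries in fibroblasts were 19.7% of genes, and at least 2-fold lower as well were 1.05%. In pericytes Txnip was at 139 CPM against 170, 241, 145 and 170 CPM (log2 difference -0.38), where 18.9% of genes were below all 4. In endothelial nuclei it was at 331 CPM, within the Tg range of 252 to 340 CPM, and in macrophages at 316 CPM, within 244 to 365 CPM.

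Pdk4 in endothelial nuclei of nTg female 1 was above all 4 Tg libraries, as were 13.6% of genes, and in fibroblasts it was at 32.2 CPM, between the Tg female and Tg male libraries. Angptl4 in endothelial nuclei was at 19.6 CPM, within the Tg range of 9.47 to 35.1 CPM. In fibroblasts it was at 11.9 CPM, within 8.66 to 29.0 CPM. In lymphatic endothelial nuclei, under the minimum, Pdk4 was at 2.67 CPM on 1 UMI against 5.65 to 13.9 CPM. Arrdc2 in fibroblasts was at 12.998 CPM, also within the Tg range.

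The comparison with replicates in both arms was Tg female against Tg male, 2 libraries each by label. Ccna2 in cardiomyocytes was at 0.533 and 848 CPM in the female arm and at 237 and 144 CPM in the male arm. The female libraries are thus not alike in Ccna2, and its part in any difference was not tested. In cardiomyocytes none of the 6 genes passed edgeR's quasi-likelihood test with Benjamini-Hochberg adjustment over 14940 genes, of which 4 did (0.0268%), all lower in the female libraries. At an unadjusted p under 0.05 there were 1056 genes (7.07%), Pdk4, Arrdc2 and Angptl4 among them. Pdk4, Arrdc2, Angptl4 and Ucp3, 4 of the 6 genes, had both female libraries below both male libraries, as did 15.4% of all genes tested.

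Pdk4 in cardiomyocytes had a mean of 316 ± 134 CPM in the Tg female and 833 ± 90.5 CPM in the Tg male libraries (SD, n = 2 each). The fitted log2 difference (female minus male) was -1.44 with a standard error of 0.30, and edgeR's adjusted p was 0.396. Arrdc2 had the largest difference of the 6, -2.77 with a standard error of 0.41 and an edgeR adjusted p of 0.261. DESeq2 called both, with adjusted p-values of 4.41e-05 for Pdk4 and 3.44e-11 for Arrdc2, and without the low-count filter edgeR called Arrdc2 (adjusted p = 0.00424) and not Pdk4 (adjusted p = 0.0533).

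Without Tg female 1, the Pdk4 difference in cardiomyocytes was -1.09 (edgeR adjusted p = 0.0179), that of Arrdc2 -2.18 (edgeR adjusted p = 0.00194) and that of Angptl4 -1.55 (edgeR adjusted p = 0.0108). The lone female library is there assumed to vary like the male ones. With all 4 libraries, Angptl4 was at -0.89 (standard error 0.31, edgeR adjusted p = 0.610) and Ucp3 at -0.33 (standard error 0.15, edgeR adjusted p = 0.740). Pdk2 and Txnip were closest to equal, at -0.18 and -0.11 with standard errors of 0.19 each.

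In fibroblasts Pdk4 fell below the male level in the Tg female libraries and passed the test. It was at 17.1 and 18.9 CPM in Tg female 1 and 2 (143 and 109 UMIs) and at 39.4 and 39.6 CPM in Tg male 1 and 2 (289 and 236 UMIs). The log2 difference was -1.22 with a standard error of 0.18 and an edgeR adjusted p of 0.0421, in a type where 0.399% of 15283 genes were called. Without Tg female 1 it was -1.19 (edgeR adjusted p = 0.0154). With nTg female 1 added to the female arm and no genotype term it was -0.85, and the call was lost (edgeR adjusted p = 0.505).

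The fibroblast nuclei lay in 4 clusters that the libraries filled unequally. Cluster 4, led by Inmt, Fgf10 and Acss3, had the highest mean Pdk4 of the 4, at 47.5 CPM against 22.5, 31.6 and 24.8 CPM in clusters 0, 1 and 2. It held 439 and 123 nuclei of the Tg female and 683 and 736 of the Tg male libraries. Without cluster 4 the Pdk4 difference was -1.05 and the call was lost (edgeR adjusted p = 0.0909). Within single clusters it was -0.81, -1.40, -0.97 and -0.79 in clusters 0, 1, 2 and 4, with none called (edgeR adjusted p from 0.111 to 0.411). Both Tg female libraries were below both Tg male libraries in clusters 0, 1 and 2. In cluster 4 they were not, with Tg female 1 at 24.0 CPM and Tg female 2 highest of all libraries at 58.9 CPM on 17 UMIs. These per-cluster values too were added after the data had been seen.

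The carried-over estimate of Pdk4 in fibroblasts was lower in the Tg female libraries as well. The estimates were 7.22 and 19.4 CPM in the Tg female and 26.3 and 21.4 CPM in the Tg male libraries, so that Tg female 2 was measured just under its estimate. The cardiomyocyte markers themselves were higher in Tg female fibroblasts, at 1761 and 2117 CPM against 1479 and 1563 CPM, while the estimate also scales with the Pdk4 level of the cardiomyocytes. The part of either in the difference was not tested. Arrdc2 and Angptl4 were lower in both female libraries in fibroblasts too, at -0.86 (edgeR adjusted p = 0.270) and -1.06 (edgeR adjusted p = 0.300), as were 12.8% of genes there, and Txnip was at 0.01 with a standard error of 0.19.

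In the remaining 6 types none of the 6 genes was called; Txnip was tested in all of them, Pdk4 in 4, and Ucp3 in none, after the low-count filter. Genes called either way were 0.226% in endocardial, 0.0533% in endothelial, 0.27% in lymphatic endothelial, 0.206% in macrophage, 0.156% in pericyte and 0.14% in smooth muscle nuclei. Pdk4 was at -1.96 in macrophages with a standard error of 0.55 (edgeR adjusted p = 0.236), -1.001 in endocardial nuclei (edgeR adjusted p = 0.671), -0.66 in endothelial nuclei (edgeR adjusted p = 0.552) and -0.10 in pericytes (edgeR adjusted p = 0.994). The macrophage difference rested on 5 and 3 UMIs against 27 and 16.

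Pdk4 had both female libraries below both male libraries in 6 of the 8 types, which were all but pericytes and smooth muscle. Angptl4 did so in 5 of 8. The share of all genes that did was 14.8% in endocardial, 14.2% in endothelial, 16.5% in lymphatic endothelial, 18.5% in macrophage, 18.1% in pericyte and 19.6% in smooth muscle nuclei. Pdk4 was above its carry-over estimate in only part of these libraries, so the 6 types are not 6 separate measurements of it. Txnip was lower in both female libraries in endocardial and endothelial nuclei and higher in both in pericytes, where 17.1% of genes were. In pericytes Tg female 1 (169.97 CPM) and Tg male 2 (169.67 CPM) were nearly equal. Arrdc2 was higher in both female libraries in endothelial nuclei, where 26.2% of genes were, and the differences between types were not tested.

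The other genes of the pathways were taken as 8 lists, which overlap in part and were put together with earlier results known. Of the 13 considered genes of the pyruvate dehydrogenase kinases, phosphatases and complex, Pdk4 alone was at least 2-fold lower in the cardiomyocytes of nTg female 1, 2 were below all 4 Tg libraries and 4 above. The list's median log2 difference was 0.06, against -0.04 over all 13008 genes. Of the 11 alpha-arrestin, thioredoxin and Mondo/Mlx genes, Txnip alone was 2-fold lower, at a list median of 0.02. Mlxipl, the glucose-sensing factor ChREBP, was at 219 CPM against 190 ± 39.4 CPM (SD, n = 4).

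PPAR-responsive lipid genes were the list with most low values in nTg female 1. Of 26 considered, 5 were at least 2-fold lower (Pdk4, Ucp3, Angptl4, Acot1 and Acot2), 13 were below all 4 Tg libraries and 0 above, and the list median was -0.34. Over all 13008 genes the shares were 1.42%, 19.5% and 13.5%. Of these 5, the first 3 had been chosen on this contrast. Acot2, a mitochondrial acyl-CoA thioesterase, was at 3.77 CPM against 9.81, 9.85, 12.7 and 14.2 CPM (log2 difference -1.62). Its cytosolic relative Acot1 was at 2.41 CPM against 5.71, 4.84, 7.48 and 7.85 CPM (log2 difference -1.42), and reads of this near-identical pair may be split between them.

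Of 9 PPAR receptor and coactivator genes, 0 were 2-fold lower, 2 were below all 4 Tg libraries and 0 above, and the list median was 0.01. The 2 were the receptor Rxrg (33.3 CPM against 40.7 to 48.9) and the coactivator Ppargc1b (341 CPM against 384 to 530), named after their values were seen. Ppara was at 404 CPM in nTg female 1 and at 353, 296, 494 and 445 CPM in the Tg libraries. Of 14 Foxo and glucocorticoid-responsive genes, 0 were 2-fold lower and 0 were below all 4 Tg libraries, at a list median of 0.25.

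Of 12 genes of glucose uptake and glycolysis, 0 were 2-fold off, at a median of 0.04. Of 16 clock genes 1 was 2-fold lower, Arntl (BMAL1), at 2.20 CPM against 3.20, 7.01, 4.83 and 6.72 CPM. The median of the clock list was 0.13, with 4 genes below and 6 above all Tg libraries. Of the 5 stress and dissociation genes considered, 0 were 2-fold off, at a median of -0.06.

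**Figure D5:**
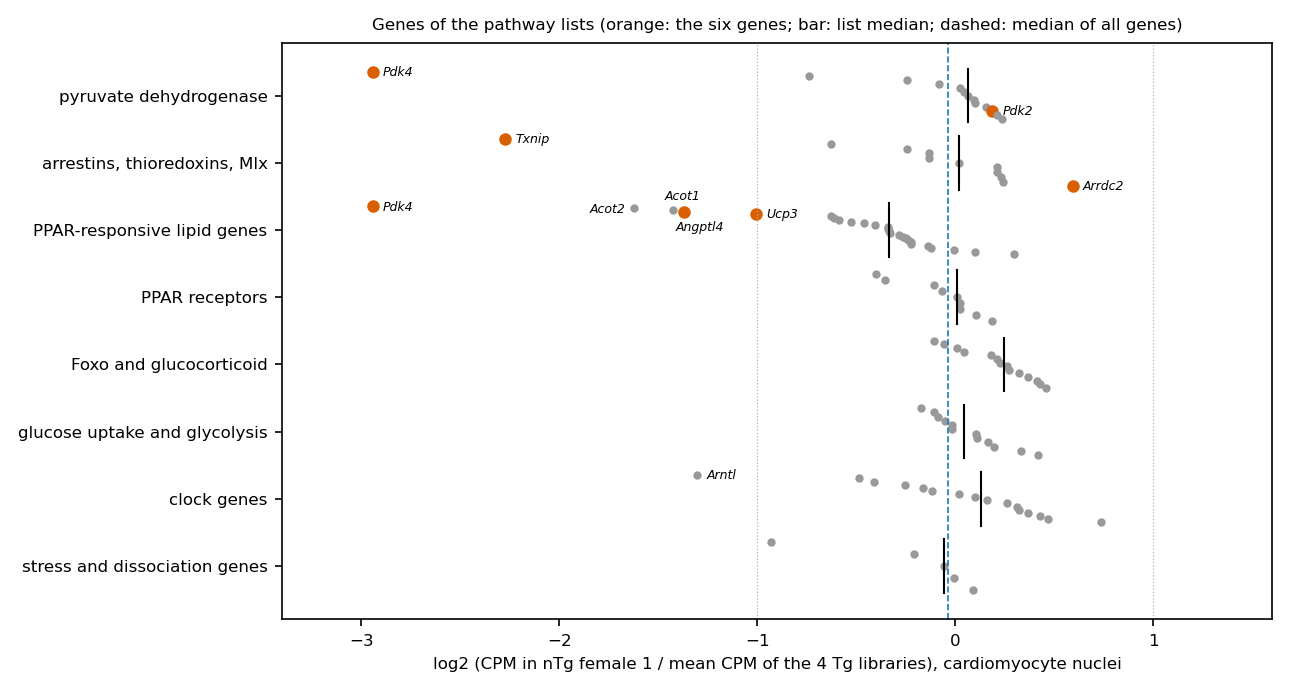
Log2 ratio of nTg female 1 to the mean of the 4 Tg libraries in cardiomyocyte nuclei for the considered genes of 8 lists, 1 point per gene, with the 6 chosen genes in orange, list medians as bars, the median of all genes dashed and 2-fold dotted. Pdk4 at -2.94 and Txnip at -2.27 lie farthest left, and the PPAR-responsive list is centred at -0.34.

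Between the sexes in cardiomyocytes, 0 genes of the 8 lists passed edgeR's adjusted threshold. At an unadjusted p under 0.05 stood 6 of 26 PPAR-responsive genes, 6 of 15 Foxo and glucocorticoid-responsive genes, 5 of 16 clock genes, 2 of 12 genes of glucose uptake and glycolysis and 1 each of the other 4 lists, against 7.07% of all 14940 genes. The median difference (female minus male) was -0.58 for the Foxo and glucocorticoid list and -0.31 for the PPAR-responsive list, against 0.01 over all genes. Fkbp5, a glucocorticoid-induced co-chaperone, was at 31.3 and 82.6 CPM in the Tg female and 271 and 362 CPM in the Tg male libraries, with 193 CPM in nTg female 1. As for Arrdc2, nTg female 1 thus lay between the Tg female and the Tg male libraries.

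In fibroblasts Fkbp5 fell along with Pdk4 in the Tg female libraries, by 1.52 on the log2 scale (edgeR adjusted p = 0.0313). It was called lower in endocardial (-3.15), lymphatic endothelial (-1.36), pericyte (-1.96) and smooth muscle nuclei (-2.59) as well. Ddit4, a stress and glucocorticoid target that restrains mTOR, was called lower in macrophages (-3.89) and endocardial nuclei (-2.49), and Tsc22d3 in endocardial nuclei (-1.52). Zbtb16 was called lower in lymphatic endothelial nuclei (-1.76), macrophages (-2.40) and pericytes (-2.11). Of all list genes in these 8 types, Pdk4 was the only one outside the Foxo and glucocorticoid list to be called.

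Likeness was measured as Pearson's r of log2(CPM + 1) with each of 10990 other genes over 40 sums, 8 types by 5 libraries, which share libraries and depth. Pdk4 was most like Clasp1 and Ppara (r = 0.87 each) and Ppp1r3a (r = 0.87). Txnip was most like its antisense neighbour Gm15441 (r = 0.86), then Mgat5 and Cep70 (r = 0.76 each). Ucp3 was most like 3 predicted genes, Gm35041, Gm32369 and Gm31013 (r = 0.93 each).

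Pdk2 was most like Mapk10 (r = 0.87), Arrdc2 most like Npc1 and Atf6 (r = 0.77 each), and Angptl4 most like Cecr2 and Optn (r = 0.67 each). Among the 6 genes themselves r was 0.72 for Pdk4 with Ucp3, 0.78 for Pdk2 with Ucp3 and 0.23 for Pdk4 with Txnip. After the mean of each type was taken out, Txnip was again most like Gm15441 (r = 0.71), Pdk4 most like Gm43813 (r = 0.77) and Arrdc2 most like Pik3r1 (r = 0.67).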

How the data were processed

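Nuclear RNA libraries were deposited as 10x matrices of UMI counts per gene and nucleus, made by the authors with Cell Ranger 7.0.0 per the file headers, on the mm10 build per the submitters' processing notes. Other counting settings are not given in the sources used here. Matrices whose column count differed from their own barcode list were left out (3 of 8). Barcodes with at least 200 genes and at most 5% mitochondrial UMIs were kept. Doublets were removed with scrublet, 7.63% to 11.4% per library. The automatic threshold marked no nucleus of Tg female 2, where the median threshold of the other libraries was used. Clustering used scanpy 1.11.5 on 2000 variable genes and 30 components, with Leiden resolution 1, leaving out the 6 genes, Ccna2 and sex-linked genes. Of the 6 genes Pdk4 was among the variable genes before it was left out. Clusters were named from markers, so cell types and levels come from the same counts. Unnamed were 3 clusters (892 nuclei).

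UMIs were summed per library and cell type. Tg female was compared with Tg male by edgeR 4.0.16 (R 4.3.3): TMM, filterByExpr, quasi-likelihood test and Benjamini-Hochberg adjustment over all genes of a type at 0.05. On simulated cardiomyocyte counts with 200 changed genes, 19 of its 160 calls were false. It called 95.4% of the changes of at least 4-fold and 24.3% of the 2-fold ones. DESeq2 1.42.0, no filter, a replicate block, other sets of libraries, nuclei with at least 1000 UMIs, Leiden resolution 0.5 and leaving out each library were alternatives. With 1 nTg library retained, nTg female 1 was only described: at least 2-fold from the Tg mean and outside the Tg range, over genes with a mean of at least 20 UMIs per library. Named genes are the 6 genes, list genes past that rule in cardiomyocytes or called by sex, and the genes most like each of the 6. The genes and lists were chosen with earlier results of these data known.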

Additional observations from a re-analysis of the deposited data

Results flagged for a closer look

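Txnip in pericytes differed in direction from endocardial and endothelial nuclei: both Tg female libraries were above both Tg male libraries, by 0.39 on the log2 scale, while in endocardial and endothelial nuclei both were below. The pericyte values were 169.97 and 241 CPM in the Tg female libraries and 145 and 169.67 CPM in the Tg male libraries. Tg female 1 and Tg male 2 were thus nearly equal, so the sexes barely separate there. The difference between the types was not tested.

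Arrdc2 in endothelial nuclei had both Tg female libraries above both Tg male libraries, by 0.20 on the log2 scale, while both were below in cardiomyocytes and fibroblasts. The endothelial values were 9.05 and 9.47 CPM in the Tg female and 7.88 and 8.29 CPM in the Tg male libraries, on 23 to 30 UMIs. This difference was not tested either.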

How the results depend on the processing

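The 4 genes called by sex in cardiomyocytes became 93 with DESeq2, 43 with no low-count filter and 132 with the replicate block, and 92 to 346 with a library left out. In the other 7 types 154 calls became 445 with DESeq2, 1776 with no filter, 674 with the block, 254 with all 5 libraries and a genotype term, 56 without that term, and 444 to 2711 with a library left out. The 225 genes called in nTg female 1 became 453 against the Tg female libraries alone and 218 to 297 with a Tg library left out. Of the 6 genes, Txnip changed sign in cardiomyocytes without Tg female 1 (0.0046; range with a library left out -0.24 to 0.0046), and Pdk4 in pericytes without Tg female 1 (0.28) or Tg male 1 (0.25; range -0.42 to 0.28), none of them called. The cause was not tested. Replicate numbers were not taken to pair the samples: deviations of same-numbered libraries from the mean of their sex correlated at -0.0302 to 0.169. With 2 libraries a sex, both pairs give the same value, so a pairing is not settled by it. With the block, Pdk4 (edgeR adjusted p = 0.0137) and Arrdc2 (edgeR adjusted p = 2.53e-05) in cardiomyocytes were called. The mean cardiomyocyte levels of the 6 genes moved by less than the spread between libraries under each of the 8 alternatives run. With 2 libraries an arm and 1 nTg library, precision is limited throughout, and low counts limit the values of Pdk4, Pdk2, Arrdc2, Angptl4 and Ucp3 outside cardiomyocytes. Without fibroblast cluster 4, an alternative chosen after seeing the data, Pdk4 in fibroblasts was at -1.05 and not called (edgeR adjusted p = 0.0909), nor was it called in any of the 4 fibroblast clusters alone.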
